A study of Mus musculus with 12 samples.

Results

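Voltage-gated calcium and sodium channels and the hyperpolarization-activated HCN channels were examined in the BACHD striatum after a wig-1 antisense oligonucleotide (ASO). Members were taken by gene symbol, as genes of the calcium channel families Cacna, Cacnb and Cacng, of the sodium channel Scn alpha and beta families, and of the Hcn family. These families were chosen with earlier results of these data known. The array carried 84 probes for 36 such genes, of 19057 genes with a single symbol. A probe counted as measured if 4 or more of the 12 arrays gave it a detection p-value under 0.01, and 25 of the 36 genes passed with 44 probes, of 10031 genes in all.

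The study lowered wig-1 in the striatum of a Huntington's disease mouse and profiled total RNA on Illumina MouseWG-6 v2 arrays. The mice received wig-1 ASO (4 mice), a negative control ASO of the same chemistry (4 mice) or PBS, the vehicle (4 mice), and each mouse gave 1 array. All 12 mice were 5-month-old BACHD animals, which express full-length mutant human huntingtin from its own regulatory elements, so that the PBS and control ASO groups carry the disease allele too and no wild-type group was measured. By the study's account each treatment, PBS included, was a single bolus into the striatum, although the sample labels call the PBS group no treatment. The time between injection and RNA collection is not given for the arrays in the sources used here. Values are log2 signals, and a level of one gene cannot be set against that of another because probes differ in brightness. The words rose and fell are kept for genes with a limma p-value under 0.05 after adjustment over all 17188 measured probes. The p-values measure the spread between these mice, and their number limits the precision.

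Wig-1 is encoded by Zmat3, whose log2 signal was 6.89, 6.63, 6.77 and 5.95 with wig-1 ASO, against 8.48, 8.47, 8.53 and 8.31 with control ASO and 8.57, 8.60, 8.37 and 8.44 with PBS. Every wig-1 ASO array lay below every other array, at a mean of 26.2% of PBS (limma adjusted p = 0.000842). The arrays detected between 15228 and 17198 probes, and between 34 and 44 of all 84 channel probes. Both extremes of the probe count were in the wig-1 ASO group, the lowest on replicate 1 and the highest on replicate 3. Although the labels name the tissue only as brain, 14 of 17 listed markers of striatal medium spiny neurons were measured, and all 14 were detected on all 12 arrays. Markers of choroid plexus and ependyma, which line the ventricle beside the striatum, were uneven: their mean lay more than 1 log2 above the PBS mean on wig-1 ASO arrays 2 and 3, control ASO arrays 1, 3 and 4 and PBS array 2.

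A voltage-gated calcium channel is built on a pore-forming alpha1 subunit, which sets the current type, and in most types an alpha2delta and a beta subunit help it reach the membrane and tune its gating. The neuronal gamma subunits are better known as partners of AMPA-type glutamate receptors, which they carry to the synapse. Sodium channel alpha subunits start and carry the action potential, beta subunits adjust their gating and anchor them, and HCN channels pass an inward current when the membrane is hyperpolarized. Medium spiny neurons are the main neurons of the striatum. In bulk tissue, fewer cells of a type and less RNA per cell cannot be told apart.

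In wig-1 ASO-treated striatum 2 channel genes fell against PBS and none rose. The alpha2delta subunit gene Cacna2d3 fell to 50.6% of PBS and the calcium channel beta subunit gene Cacnb4 to 70.9%. Against control ASO, the AMPA receptor regulatory gene Cacng2 fell to 54.9% and no member rose. Between control ASO and PBS no channel gene was called. Over all 25 genes, the called ones included, the fitted log2 change of wig-1 ASO against PBS was negative for 23, with a median of -0.24 and a range of -0.98 to 0.06.

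Those counts stand against the following shares over all 10031 genes. In wig-1 ASO against PBS, 0.977% of genes fell and 2.83% rose, while 2 of the 25 channel genes fell and 0 rose. In wig-1 ASO against control ASO, 0.289% of genes fell and 0.788% rose, against 1 and 0 of the channel genes. In control ASO against PBS, 0% of genes were called, and 0 of the 25.

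Array by array, without a model, all 4 wig-1 ASO arrays lay below all 4 PBS arrays for 3 channel genes (Cacna2d3, Cacnb4 and Cacng2) and above them for 0, against 4.5% and 6.54% of all genes. The wig-1 ASO arrays lay below all control ASO arrays for the same 3 genes and above them for 0, against 4.57% and 4.74% of all genes. All 4 control ASO arrays lay below all 4 PBS arrays for 2 channel genes, Cacna1h and Cacng7, and above them for 0, against 2.52% and 2.5% of all genes.

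Shares of members with a negative change, with no test attached, were 92% in wig-1 ASO against PBS, 76% in wig-1 ASO against control ASO and 72% in control ASO against PBS. Over all genes these shares were 51.9%, 52.2% and 48.5%. The channel families had been chosen with earlier results of these data known. The medians of the 25 were -0.24, -0.11 and -0.10 log2 in those comparisons, where the median over all genes was -0.01, -0.01 and 0.01. At an unadjusted p under 0.05 from limma, 7 members (28%) were lower with wig-1 ASO than with PBS, beside 8.25% of all genes, and 0 were higher. Against control ASO 5 members (20%) were lower at that limit, beside 6.45% of all genes, and between control ASO and PBS 1 (4%) was, beside 3.16%. The comparisons share arrays, the wig-1 ASO arrays in both comparisons of that ASO and the PBS arrays in both comparisons with PBS, so that they are not independent of each other.

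**Figure D1:**
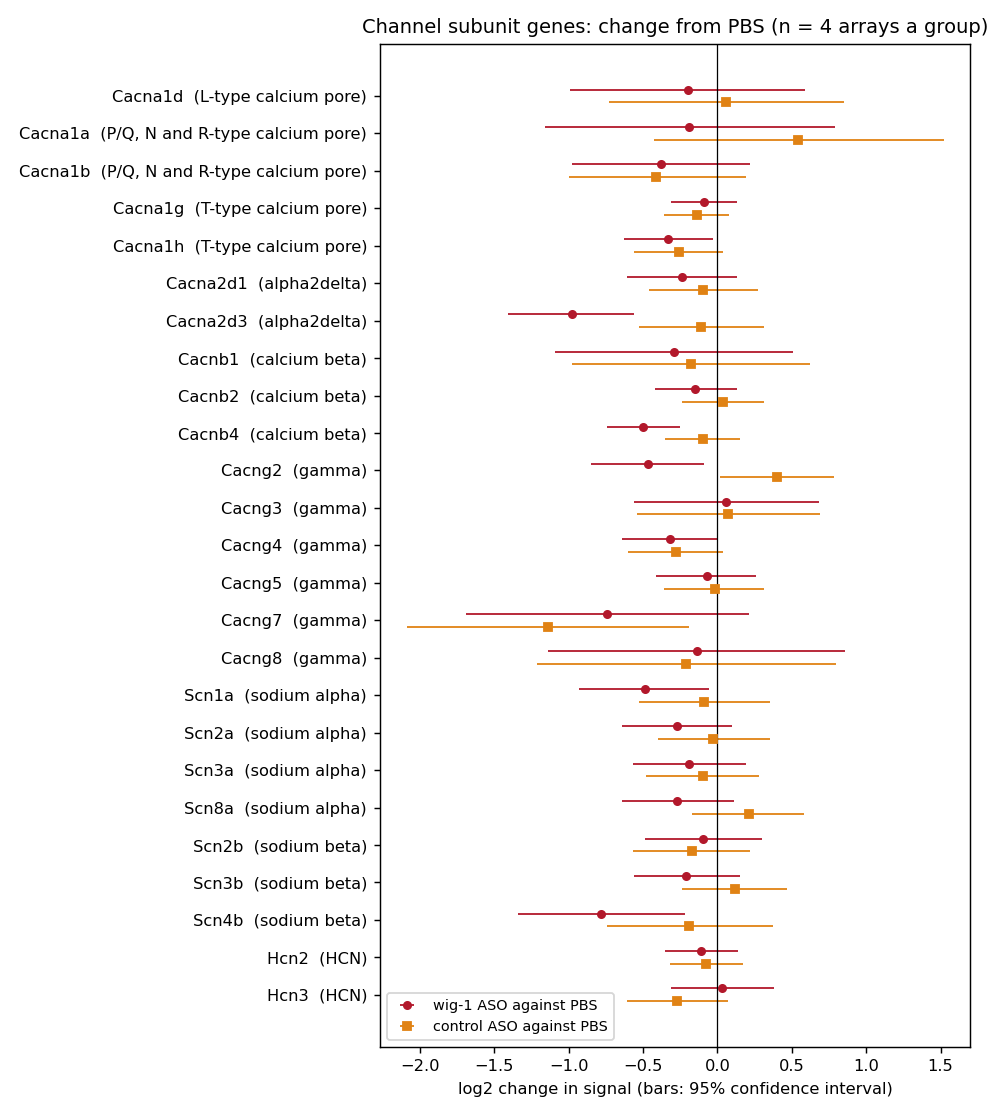
Log2 change in signal from PBS (x axis) for the 25 measured channel genes by role (y axis), with wig-1 ASO as red circles and control ASO as orange squares. Bars are 95% confidence intervals from limma with n = 4 arrays a group, and the wig-1 ASO points lie left of 0 for 23 genes and furthest left for Cacna2d3 at -0.98.

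Cacna2d3 encodes an alpha2delta subunit, an extracellular protein that traffics calcium channels. Its log2 signal (probe ILMN_2762672) was 7.58, 6.76, 6.99 and 6.69 with wig-1 ASO, 7.85, 7.98, 7.62 and 8.07 with control ASO and 7.97, 7.83, 7.86 and 8.29 with PBS. All 4 wig-1 ASO arrays were lower than all 8 others, wig-1 ASO replicate 1 lay closest to the other groups, and control ASO and PBS overlapped. Means were 7.01 ± 0.41 with wig-1 ASO, 7.88 ± 0.19 with control ASO and 7.99 ± 0.21 with PBS (SD, n = 4 each). The change was -0.98 log2 against PBS (SE 0.19, 95% confidence interval -1.41 to -0.56, limma adjusted p = 0.023, two-sided exact permutation p = 0.029, the smallest that 4 arrays against 4 allow). Against control ASO it was -0.87 (SE 0.19, adjusted p = 0.0628), and control ASO against PBS gave -0.11 (SE 0.19, adjusted p = 0.921). The other alpha2delta gene measured, Cacna2d1, the target of the drug gabapentin, had signals of 8.25, 7.66, 7.80 and 7.54 with wig-1 ASO, 8.09, 7.78, 7.67 and 8.26 with control ASO and 8.08, 8.01, 7.99 and 8.12 with PBS. Its groups overlapped, with a difference from PBS of -0.24 (95% confidence interval -0.61 to 0.13, adjusted p = 0.503). The Cacna2d3 call against PBS was lost without wig-1 ASO replicate 2, 3 or 4, and likewise without PBS replicate 1, 2 or 4, with changes of -1.18 to -0.88 over the 12 fits that leave out 1 array. Without the 6 arrays high in choroid plexus markers, a setting chosen after seeing the data that leaves 2 wig-1 ASO, 1 control ASO and 3 PBS arrays, it was -0.91 (adjusted p = 0.696 from these few arrays).

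Beta subunits are cytoplasmic proteins that bind the pore subunit and move it to the membrane. Cacnb4, the gene mutated in the lethargic mouse, had log2 signals (probe ILMN_3123491) of 8.87, 8.78, 8.71 and 8.46 with wig-1 ASO, 9.08, 9.19, 8.89 and 9.25 with control ASO and 9.12, 9.18, 9.24 and 9.28 with PBS. Every wig-1 ASO array was under every array of the other groups, which overlapped each other. Means were 8.71 ± 0.18 with wig-1 ASO, 9.10 ± 0.16 with control ASO and 9.20 ± 0.07 with PBS (SD, n = 4 each). The change was -0.50 log2 against PBS (SE 0.11, 95% confidence interval -0.74 to -0.25, limma adjusted p = 0.0373), -0.39 against control ASO (SE 0.11, adjusted p = 0.14), and -0.10 for control ASO against PBS (SE 0.11, adjusted p = 0.857). Cacnb4 has 3 measured probes, and the other pair gave -0.43 (SE 0.14, adjusted p = 0.115) and -0.50 (SE 0.26, adjusted p = 0.349), so that all 3 were lower and 1 passed the test. The call held in 3 of the 12 fits without 1 array, those without wig-1 ASO replicate 1 or control ASO replicate 3 or 4, over a range of -0.55 to -0.41. It missed the study's own limits, which ask for a fold change of at least 1.5, and without the 6 arrays high in choroid plexus markers it was -0.55 (adjusted p = 0.711 from the few left).

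The other beta genes were not called. Cacnb2 had signals of 5.06, 4.73, 4.74 and 4.61 with wig-1 ASO, 4.81, 5.16, 4.88 and 5.02 with control ASO and 4.77, 5.09, 4.89 and 4.97 with PBS, which overlap throughout (difference from PBS -0.15, 95% confidence interval -0.42 to 0.13, adjusted p = 0.601). Its second probe, singled out after its values were seen, read 5.18, 4.20, 4.04 and 3.50 with wig-1 ASO, 4.98, 4.25, 4.08 and 4.70 with control ASO and 4.83, 5.13, 5.04 and 5.28 with PBS. There 3 of the 4 wig-1 ASO arrays were below every PBS array while replicate 2 was within the control ASO range and replicates 3 and 4 under it. The difference from PBS was -0.84 (SE 0.31, adjusted p = 0.18). Cacnb1, whose product also serves the skeletal muscle channel, differed from PBS by -0.29 (SE 0.37, adjusted p = 0.742).

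**Figure D2:**
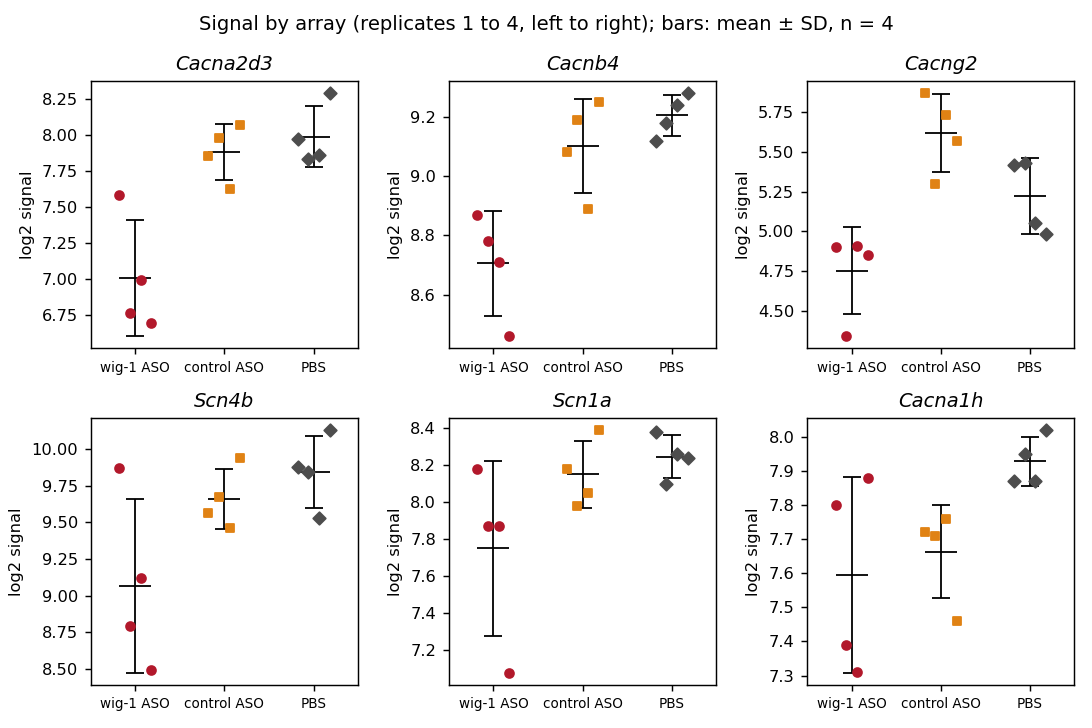
Log2 signal (y axis) on each array for 6 channel genes, with wig-1 ASO (red circles), control ASO (orange squares) and PBS (grey diamonds) from left to right and the mean ± SD of n = 4 as bars. The wig-1 ASO arrays lie below all PBS arrays for Cacna2d3, Cacnb4 and Cacng2, and for Scn4b replicate 1, at 9.87, lies within the PBS range. The y axes do not start at 0.

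Of the gamma family, 6 genes were measured, and all 6 belong to the group that regulates AMPA receptors. Cacng2 encodes stargazin, the first such protein described, which is lost in the stargazer mouse. Its log2 signal (probe ILMN_2778812) was 4.90, 4.34, 4.91 and 4.85 with wig-1 ASO, 5.87, 5.30, 5.73 and 5.57 with control ASO and 5.42, 5.43, 5.05 and 4.98 with PBS. The wig-1 ASO arrays were the 4 lowest of the 12, and the control ASO and PBS arrays overlapped, with 3 control ASO arrays above every PBS array. The change was -0.87 log2 against control ASO (SE 0.17, 95% confidence interval -1.25 to -0.49, limma adjusted p = 0.0473). Against PBS it was -0.47 (SE 0.17, 95% confidence interval -0.85 to -0.09, adjusted p = 0.181), and control ASO differed from PBS by 0.40 (SE 0.17, adjusted p = 0.715). The call against control ASO held in 1 of the 12 fits without 1 array, that without wig-1 ASO replicate 1, over a range of -0.97 to -0.73. Without the 6 arrays high in choroid plexus markers, the change was -0.43 between 2 wig-1 ASO arrays and control ASO replicate 2 alone. With 1 control ASO array, assumed to vary like the other groups, the p-value of that fit has no bearing on the call and is not given.

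No other gamma gene passed the test. Cacng4 had signals of 5.75, 5.49, 5.58 and 5.74 with wig-1 ASO, 5.46, 5.80, 5.46 and 5.99 with control ASO and 6.03, 6.08, 6.04 and 5.67 with PBS. PBS replicate 4 fell among the ASO arrays and the other 3 PBS arrays stood above all of them, with differences from PBS of -0.32 (SE 0.15, adjusted p = 0.277) for wig-1 ASO and -0.28 (SE 0.15, adjusted p = 0.75) for control ASO. Cacng7 was lower with control ASO, at 1.96, 3.79, 2.74 and 3.90 against 4.78, 4.0, 3.96 and 4.21 with PBS, and the wig-1 ASO arrays, at 4.25, 2.83, 3.79 and 3.12, overlapped both. Only 2 of the 4 control ASO arrays and 3 of the 4 wig-1 ASO arrays detected Cacng7, and control ASO against PBS gave -1.14 (SE 0.44, adjusted p = 0.712). Differences between wig-1 ASO and PBS were 0.06 for Cacng3, -0.07 for Cacng5 and -0.14 for Cacng8, the last detected on 4 arrays.

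The pore-forming calcium channel genes showed no called change. Of these, 5 were measured (Cacna1d, Cacna1a, Cacna1b, Cacna1g and Cacna1h), and the wig-1 ASO mean lay under the PBS mean for all 5. Cacna1h, a T-type pore that opens at low voltage, had signals of 7.80, 7.39, 7.31 and 7.88 with wig-1 ASO, 7.72, 7.71, 7.76 and 7.46 with control ASO and 7.87, 7.95, 7.87 and 8.02 with PBS. The control ASO arrays all lay below the PBS arrays, and 3 of the wig-1 ASO arrays did, replicate 4 being the exception. The difference from PBS was -0.33 (SE 0.14, adjusted p = 0.233) with wig-1 ASO and -0.26 (SE 0.14, adjusted p = 0.75) with control ASO. Cacna1g, the other measured T-type pore, had signals of 5.82, 6.01, 6.05 and 6.02 with wig-1 ASO, 6.08, 5.77, 5.95 and 5.91 with control ASO and 6.07, 5.91, 6.13 and 6.16 with PBS. These 12 values span a narrow range in which the groups overlap, and the 95% confidence interval of the difference between wig-1 ASO and PBS was -0.31 to 0.13.

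Probes for the presynaptic and L-type pores were dim. Cacna1a, the P/Q-type pore that drives much of transmitter release, had signals of 3.41, 1.78, 3.44 and 2.62 with wig-1 ASO, 3.70, 3.86, 3.77 and 2.83 with control ASO and 3.38, 2.24, 2.45 and 3.92 with PBS. It was detected on 2 wig-1 ASO, 4 control ASO and 2 PBS arrays, and its groups overlapped widely (difference from PBS -0.19, 95% confidence interval -1.16 to 0.79). Cacna1b, the N-type pore, read 3.10, 2.34, 2.64 and 3.41 with wig-1 ASO, 3.17, 2.75, 2.50 and 2.96 with control ASO and 3.32, 3.05, 2.77 and 3.87 with PBS, also overlapping. Cacna1b's difference from PBS was -0.38 by this probe (95% confidence interval -0.98 to 0.22) and 0.16 by a second probe, with both detected on 7 arrays. Cacna1d, an L-type pore that opens at comparatively low voltage, read 3.92, 4.0, 2.90 and 3.39 with wig-1 ASO, 4.31, 3.43, 3.89 and 3.63 with control ASO and 3.67, 4.34, 2.74 and 4.26 with PBS. By this probe the Cacna1d groups overlapped fully (difference from PBS -0.20, 95% confidence interval -0.99 to 0.59). A second probe, detected on 6 arrays, gave 0.06 for wig-1 ASO against PBS. On that probe all 4 control ASO arrays lay above all 4 PBS arrays (0.80, SE 0.29, limma adjusted p = 0.707). Wig-1 ASO differed from control ASO there by -0.75 (SE 0.29, limma adjusted p = 0.269). Intervals this wide do not show that these pore genes stayed the same.

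Sodium channel genes were lower with wig-1 ASO than with PBS in 7 of 7 cases by their fitted change, from -0.78 to -0.10 with a median of -0.27, and 0 passed the test (smallest adjusted p = 0.13). The median of the same 7 was -0.09 for control ASO against PBS. Scn1a, a pore subunit prominent in fast-spiking interneurons, had signals of 8.18, 7.87, 7.87 and 7.08 with wig-1 ASO, 8.18, 7.98, 8.05 and 8.39 with control ASO and 8.38, 8.10, 8.26 and 8.24 with PBS. Here 3 wig-1 ASO arrays were below every PBS array and replicate 1 was within the PBS range. The difference from PBS was -0.49 (SE 0.20, 95% confidence interval -0.93 to -0.06, adjusted p = 0.219) and from control ASO -0.40 (SE 0.20, adjusted p = 0.411).

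Scn2a, a pore subunit of axons, read 7.19, 7.24, 7.04 and 7.37 with wig-1 ASO, 7.38, 7.65, 7.22 and 7.56 with control ASO and 7.56, 7.77, 7.62 and 6.96 with PBS. PBS replicates 1, 2 and 3 lay above all wig-1 ASO arrays and replicate 4 below them. Its 4 measured probes gave differences from PBS of -0.27, -0.11, -0.02 and -0.22, with adjusted p between 0.453 and 0.969. The pore genes Scn3a, best known from the embryonic brain, and Scn8a, which carries much of the current at the axon initial segment, differed from PBS by -0.19 (SE 0.17) and -0.27 (SE 0.17). Scn8a with wig-1 ASO lay at 72.0% of control ASO (-0.47, SE 0.17, adjusted p = 0.236).

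Scn4b, a beta subunit gene with high expression in medium spiny neurons, showed the second most negative change against PBS of the 25 genes, and its call turned on 1 array and on the offset added to the signal. Its log2 signal (probe ILMN_2813547) was 9.87, 8.79, 9.12 and 8.49 with wig-1 ASO, 9.56, 9.67, 9.46 and 9.94 with control ASO and 9.88, 9.84, 9.53 and 10.13 with PBS. Replicates 2, 3 and 4 of wig-1 ASO were below all 8 other arrays, while replicate 1 lay among the PBS arrays. The difference was -0.78 against PBS (SE 0.25, 95% confidence interval -1.34 to -0.22, limma adjusted p = 0.13) and -0.59 against control ASO (SE 0.25, adjusted p = 0.329). Without wig-1 ASO replicate 1 these were -1.05 (adjusted p = 0.00815) and -0.86 (adjusted p = 0.0355). With all 12 arrays and log2(signal + 16) in place of log2 signal, the change against PBS was -0.76 (adjusted p = 0.0487). A dimmer second probe, detected on 6 arrays, gave -0.25 against PBS (SE 0.36).

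Scn3b, a beta subunit without a covalent link to its pore, read 6.38, 6.22, 6.37 and 6.02 with wig-1 ASO, 6.19, 6.67, 6.70 and 6.73 with control ASO and 6.37, 6.72, 6.61 and 6.12 with PBS. The groups overlapped, and its 3 probes disagreed in sign, at -0.21, 0.40 and -0.16 against PBS with adjusted p of 0.559, 0.343 and 0.789. Scn2b, a beta subunit bound covalently to its pore, differed from PBS by -0.10 (95% confidence interval -0.49 to 0.30).

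The HCN genes had a median difference from PBS of -0.04, the closest to 0 of the roles examined, and neither was called. Hcn2, responsive to cyclic AMP, had signals of 9.40, 9.35, 9.47 and 9.10 with wig-1 ASO, 9.36, 9.34, 9.45 and 9.29 with control ASO and 9.52, 9.37, 9.24 and 9.62 with PBS. Hcn3, which responds little to cyclic AMP, read 4.69, 4.87, 4.93 and 4.95 with wig-1 ASO, 4.79, 4.79, 4.59 and 4.05 with control ASO and 4.94, 4.82, 4.69 and 4.85 with PBS. Both genes overlapped between all groups. The 95% confidence interval of wig-1 ASO against PBS was -0.35 to 0.14 for Hcn2 and -0.31 to 0.38 for Hcn3, whose second probe gave -0.06.

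Of the 25 genes, 14 had more than 1 measured probe, 33 probes in all. In 9 of the 14 the probes gave one sign in wig-1 ASO against PBS. In 5 they gave both signs, namely Cacna1b, Cacna1d, Cacng5 (-0.07 and 0.07), Hcn3 and Scn3b. Cacna2d3 and Cacng2 rest on 1 measured probe each.

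**Figure D3:**
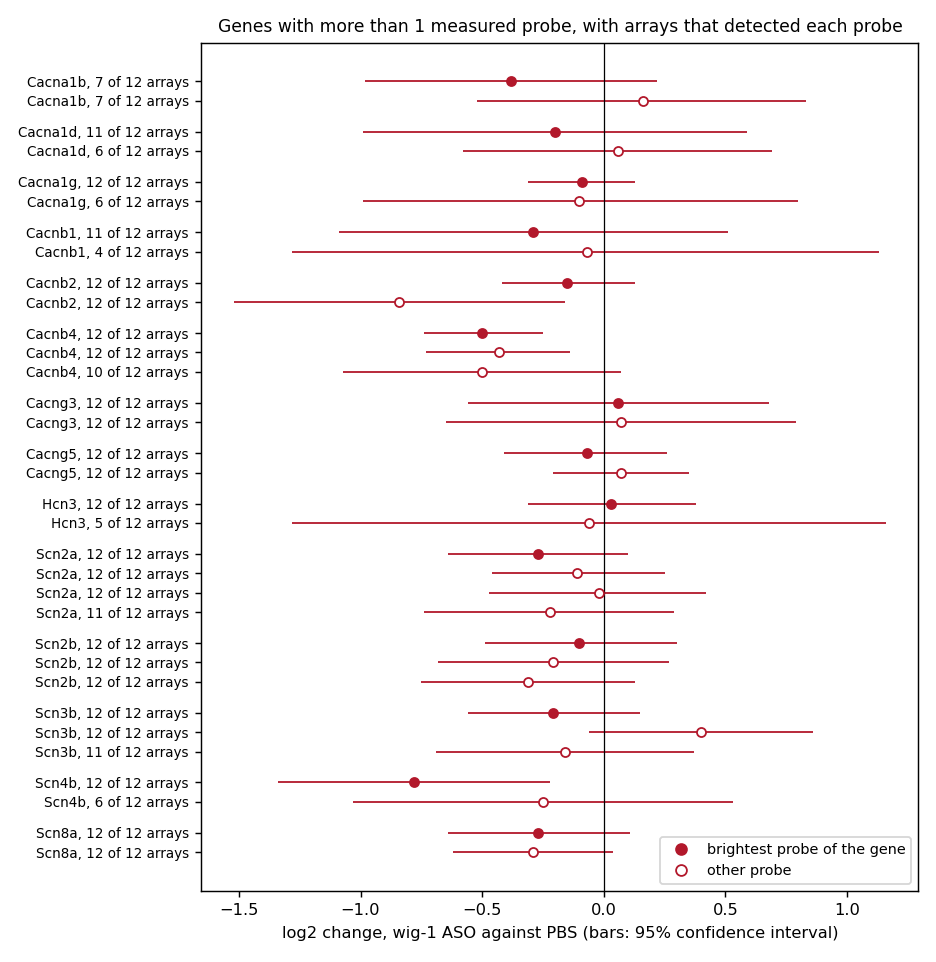
Log2 change of wig-1 ASO against PBS (x axis) for each measured probe of the 14 channel genes with more than 1 (y axis, with the number of arrays that detected the probe). Filled circles are the brightest probe of a gene, open circles the others and bars 95% confidence intervals from limma, n = 4 arrays a group. The 3 Cacnb4 probes lie between -0.50 and -0.43, and the Scn3b probes lie on both sides of 0.

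The remaining 11 genes were detected on 0 arrays by any of their 21 probes, with log2 signals of 1.01 to 2.77, so that nothing can be said of their change. They are the pores Cacna1c, Cacna1e, Cacna1f and Cacna1i, the auxiliary genes Cacna2d4, Cacng1 and Cacng6, the pacemaker gene Hcn4, and the sodium channel genes Scn7a, Scn10a and Scn11a. Cacna1c, the L-type pore that is the usual one in brain and heart, had 7 probes, none of them detected. Another 19 dim probes belong to genes measured by other probes.

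Genes whose products anchor, modify or accompany these channels were examined as a second list of 38, of which 29 were measured. That list too was chosen with earlier results of these data known. Against PBS, 25 of the 29 had a negative change with wig-1 ASO, 1 fell and 0 rose, with a median of -0.30 log2. Over all genes 51.9% had a negative change, 0.977% fell and 2.83% rose, with a median of -0.01. The median of the 29 was -0.03 for control ASO against PBS. Between wig-1 ASO and control ASO 0 of the 29 were called, where 0.289% of all genes fell and 0.788% rose. The partner gene that fell against PBS was Rims1, which encodes an active zone scaffold that tethers presynaptic calcium channels. Its signals were 8.60, 8.68, 8.53 and 8.31 with wig-1 ASO, 9.23, 8.97, 8.76 and 9.08 with control ASO and 9.18, 9.26, 9.58 and 8.98 with PBS, and every wig-1 ASO array was the lower. The change was -0.72 against PBS (SE 0.15, limma adjusted p = 0.0266) and -0.48 against control ASO (SE 0.15, adjusted p = 0.161). Next in order of p came Camk2a, a calcium-dependent kinase of the synapse (-0.54, adjusted p = 0.0771), and Fgf12, which binds sodium channel tails (-0.42, adjusted p = 0.158). Nfasc, an adhesion protein of the axon initial segment, followed (-0.34, adjusted p = 0.195). Control ASO against PBS gave -0.03 for Camk2a, -0.04 for Fgf12 and -0.44 for Nfasc (limma adjusted p = 0.665 for Nfasc). For Nfasc all 4 control ASO arrays lay below all 4 PBS arrays, and wig-1 ASO differed from control ASO by 0.10. The count of 1 partner gene became 0 without any 1 of PBS replicates 1 to 3 or wig-1 ASO replicates 2 to 4, and 5 partner genes were called without wig-1 ASO replicate 1.

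Cell type markers were read on the same arrays as the channel genes. Each array's mean over the 25 channel genes, as the log2 difference from the PBS mean, was -0.07, -0.45, -0.31 and -0.36 with wig-1 ASO, -0.10, -0.05, -0.20 and -0.03 with control ASO and 0.03, -0.02, -0.09 and 0.09 with PBS. The same mean over the 14 spiny neuron markers was 0.01, -0.94, -0.75 and -0.63 with wig-1 ASO, -0.48, -0.17, -0.38 and -0.13 with control ASO and -0.07, 0.01, -0.17 and 0.23 with PBS. In both, wig-1 ASO replicates 2 to 4 were the 3 lowest arrays and replicate 1 lay near PBS. On replicate 1 Zmat3 was 6.89, and Cacna2d3, Cacnb4 and Cacng2 each lay below every PBS array. How these means relate to the Zmat3 level was not tested. Of the spiny neuron markers 14 of 14 had a negative fitted change with wig-1 ASO against PBS, beside 51.9% of all genes, and 0 were called. Their median was -0.60 with wig-1 ASO and -0.37 with control ASO. Of 10 measured microglia markers 7 rose against PBS, beside 2.83% of all genes. Between wig-1 ASO and control ASO 4 of the 10 were called, where 0.788% of all genes rose and 0.289% fell. The microglia marker means stood at 0.86, 1.78, 1.41 and 1.65 with wig-1 ASO, 0.37, 0.29, 0.71 and -0.03 with control ASO and 0.02, -0.14, 0.06 and 0.07 with PBS. Here replicate 1 was the lowest of its group but above every other array.

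Pan-neuronal markers differed less, at -0.14 to -0.09 with wig-1 ASO, 0 to 0.14 with control ASO and -0.12 to 0.08 with PBS, with 0 of 8 called against PBS and 1 of 8 called against control ASO. All 4 wig-1 ASO means of this list lay at or under -0.09 and all 4 control ASO means at or above 0. Choroid plexus and ependyma markers were at -1.37, 1.74, 1.96 and -1.74 with wig-1 ASO, 1.91, -0.58, 1.98 and 1.42 with control ASO and -0.75, 1.05, -0.82 and 0.52 with PBS, which splits the wig-1 ASO group into a high pair and a low pair. The low pair, replicates 1 and 4, held both the highest and the lowest Cacna2d3 and Scn4b signals of the wig-1 ASO arrays. The part of these cell types in the channel gene values was not tested. Of the other lists, 1 of 8 astrocyte, 1 of 4 oligodendrocyte precursor and 1 of 10 thalamic, hypothalamic and septal markers rose against PBS. Of 7 interneuron markers 1 fell. Among 7 cortical neuron, 7 oligodendrocyte, 7 endothelial and mural and 6 choroid plexus and ependyma markers 0 were called. Against control ASO 1 of the 8 astrocyte markers was called. Over all genes 2.83% rose and 0.977% fell against PBS, and 0.788% rose and 0.289% fell against control ASO.

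**Figure D4:**
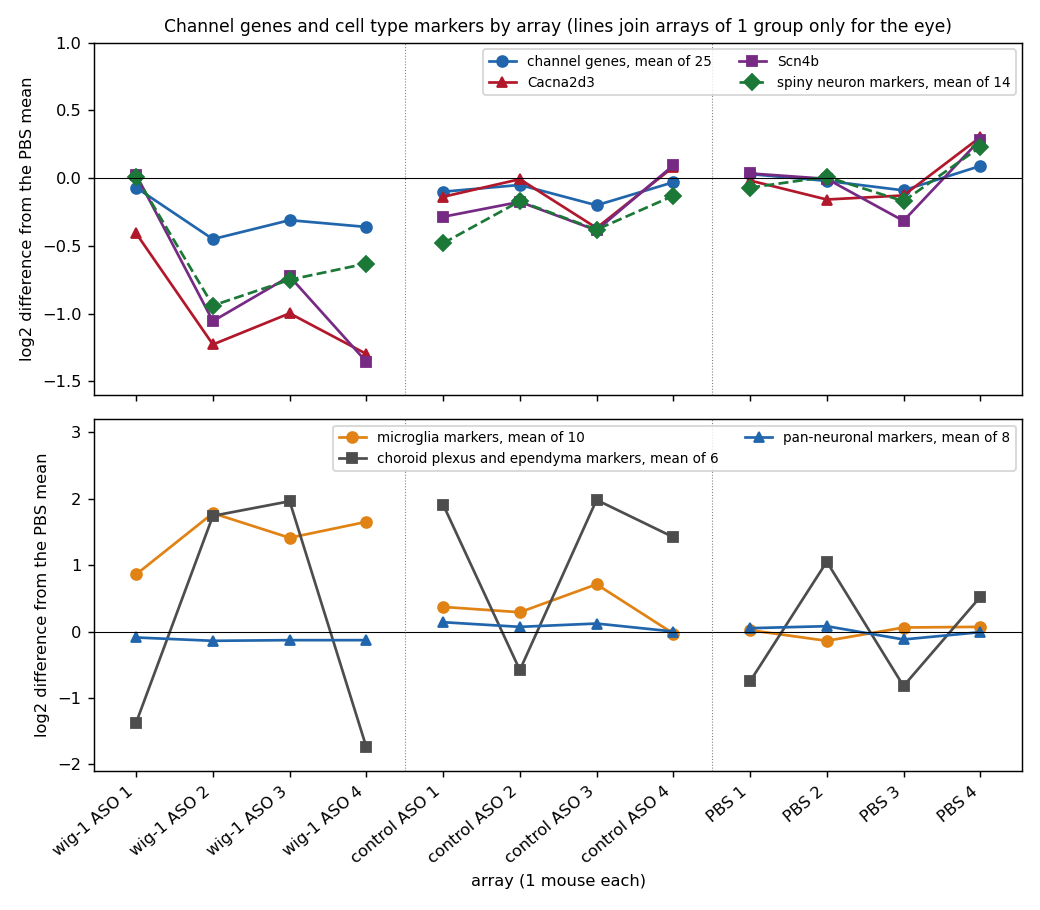
Log2 difference of each array from the PBS mean (y axis) for the 12 arrays (x axis), with channel genes and spiny neuron markers above and other marker lists below. Points are means over the genes named in the legend or single genes, and lines only join arrays of 1 group. The channel gene mean is lowest on wig-1 ASO arrays 2 to 4, at -0.45 to -0.31, and so is the spiny neuron mean, at -0.94 to -0.63.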

How the data were processed

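Striatal total RNA of 12 BACHD mice was hybridised to Illumina arrays. The authors deposited, for 45281 probes, signal intensities with their detection p-values, as well as log2 values, and name the packages lumi and siggenes, with limits of 0.1 on the false discovery rate, 0.001 on p and 1.5 on the fold change. All 12 deposited intensity columns hold the same sorted values (lowest 2, median 2.903, highest 14145), as quantile normalization leaves them, and the deposited log2 values equal log2 of these intensities within 5.6e-09. Log2 of the deposited intensities was therefore used without further normalization, although raw values had been planned for. Depth has no counterpart here, and precision is limited by 4 arrays per group.

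Symbols come from the platform annotation, and gene IDs of all 84 channel probes were found in the GRCm38.p6 gene table with 0 symbols differing. No coordinates are given, since no genome build is named. The kept probe with the brightest mean stands for a gene. A linear model with 3 group means (limma version 3.58.1, R version 4.3.3, 9 residual degrees of freedom) was fitted to 17188 probes kept at a detection p under 0.01 on 4 or more arrays, with Benjamini-Hochberg adjustment. It stands in for siggenes, and only this limma step was tested on simulated data, with values drawn independently for each probe. The permutation test runs over 70 arrangements of 8 arrays.

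Values on every array are given for members past the test, members whose wig-1 ASO and PBS arrays do not overlap and the 2 members of smallest p in each role. Partner genes are named when called or among the 4 of smallest p. Members and lists were chosen with earlier results of these data known. Family genes without an annotated probe were not analysed here. Alternatives were the filter, normalization, offset, probe choice, array weights, samples in the fit, replicate block, call limits and leaving out each array.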

Additional observations from a re-analysis of the deposited data

Results flagged for a closer look

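In 51 groups of 4 arrays (17 channel genes in 3 groups), the highest or lowest array was set against the other 3, and in 5 groups the gap to its nearest neighbour, as a share of the group's range, exceeded Dixon's 95% critical value. Chance alone marks about 1 group in 20 in this way. Cacng2 on wig-1 ASO array 2 was 4.34 on the log2 scale, where the other 3 wig-1 ASO arrays were 4.85 to 4.91. Cacna1g on wig-1 ASO array 1 was 5.82, with the others at 6.01 to 6.05. Scn3b on control ASO array 1 was 6.19, with the others at 6.67 to 6.73. Cacna1a on control ASO array 4 was 2.83, with the others at 3.70 to 3.86, for a probe detected on 8 of the 12 arrays. Cacng4 on PBS array 4 was 5.67, with the others at 6.03 to 6.08. No array carried 2 of these 5 values.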

How the results depend on the processing

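The count of 2 channel genes called in wig-1 ASO against PBS was 1 with no filter on dim probes, 1 at the study's limits, and 0 with a fit of only the 2 groups compared or with a replicate block. It was 3 with log2(signal + 16), which added Scn4b. Leaving out 1 array gave 0 to 3. The count of 1 against control ASO was 0 with no filter, with only the 2 groups or with a replicate block. It was 2 among probes detected on all 12 arrays, with array weights, with log2(signal + 16) or at the study's limits, and 3 with the mean of a gene's probes. Leaving out 1 array gave 0 to 3, with 3 only without wig-1 ASO replicate 1 and 0 in the other 11 fits. The partner count of 1 was 0 with no filter, only the 2 groups or a replicate block, 2 with array weights or log2(signal + 16), and 0 to 5 with 1 array left out. Without the 6 arrays high in choroid plexus markers these 3 counts were 0, but 2 wig-1 ASO, 1 control ASO and 3 PBS arrays then remain, the lone control ASO array is assumed to vary like the other groups, and the counts say nothing about the calls. Control ASO against PBS gave 0 called channel genes in every setting run. Median changes were -0.34 to -0.19 in wig-1 ASO against PBS, -0.23 to -0.08 in wig-1 ASO against control ASO and -0.14 to -0.03 in control ASO against PBS when 1 array was left out, the -0.23 being without wig-1 ASO replicate 1. Under the other settings they were -0.28 to -0.15, -0.17 to -0.07 and -0.10 to -0.02 in the same order, with -0.15 and -0.07 under log2(signal + 16) and -0.02 with no filter. Under cyclic loess the adjusted p was 0.0228 for Cacna2d3 and 0.0417 for Cacnb4 against PBS and 0.0491 for Cacng2 against control ASO. No called gene changed direction under any setting. The cause of these shifts was not tested.

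Replicate numbers in the labels share only a number. Correlations of the deviations of same-numbered arrays ran from -0.14 to 0.13, with 1 of 12 pairs over 0.1, and 1 array correlated best with its own number. With the replicate block the adjusted p was 0.0567 for Cacna2d3 and 0.101 for Cacnb4 against PBS, and 0.0909 for Cacng2 against control ASO. Probes near the background limit precision, since 6 of the 25 genes were detected on fewer than 12 arrays.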
